A study of Mus musculus with 12 samples.

Results

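The 34 genes described here encode enzymes that build cholesterol and fatty acids, together with the proteins that regulate them. They were taken by symbol from a count table of 52636 Ensembl genes: all 34 were present, and all 34 were among the 15859 genes with enough reads to test. They comprise 19 sterol steps (8 of the mevalonate and isoprenoid part and 11 from squalene to cholesterol), 9 fatty acid steps, and 6 regulators and carriers. RNA was read by sequencing in 12 libraries of mouse salivary glands dissected from the lower jaw of E13.5 embryos and grown for 2 days on a membrane over medium. Wild-type glands received the solvent DMSO (3 libraries, labelled DMSO) or SU5402 at 2.5 µM, a small molecule that blocks the kinase of FGF receptors (3 libraries, FGFRi). Untreated glands came from a cross in which Cre driven by the keratin 14 promoter, active in epithelium, removes Fgfr2b, the epithelial isoform of Fgfr2: wild type (WT), heterozygous (HET) and homozygous deleted (HOM), 2 libraries each. The inhibitor was given to the whole gland, whereas the deletion is made in cells with keratin 14 promoter activity. How far the inhibitor reached within the gland was not measured here. Counts over the whole Fgfr2 gene do not separate the deleted isoform and so do not check the HOM label.

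Cholesterol is built from acetyl-CoA through mevalonate, which also supplies the isoprenoids of prenylated proteins, dolichol and ubiquinone, and then through squalene and lanosterol. Fatty acids are built from the same acetyl-CoA, then elongated and desaturated for membrane lipids. Transcription factors of the SREBP family drive both branches: the product of Srebf2 acts mainly on sterol genes and that of Srebf1 mainly on fatty acid genes, and both are held in the endoplasmic reticulum by Scap and the Insig proteins while sterols are plentiful. A growing gland needs new membrane, for which both branches supply lipids.

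Total counts ran from 6043701 to 22322182 per library, and the lowest count of any of the 34 genes in any library was 49. Levels are given in CPM, read counts divided by the library size after TMM scaling in edgeR and put on a common scale. The labels put all 12 libraries in 1 batch and do not name embryos or litters of origin. The p-values therefore rest on library-to-library spread, some of which may be technical. By Xist and Y-linked genes, 7 libraries were female and 5 male. HOM and FGFRi were female throughout, DMSO 1 and DMSO 3 also, while WT, HET and DMSO 2 were male. DMSO was the only group with both sexes, so a term for sex in a fit rests on DMSO 2. All 15 pan-epithelial and all 14 mesenchymal marker genes were detected, as in a whole gland. Summed over the 15 epithelial genes, levels were 2146 to 2451 CPM in DMSO and 1601 to 1779 CPM in FGFRi, 1984 to 2353 CPM in WT and HET and 1623 to 1715 CPM in HOM. In a bulk sample, fewer cells of a type and less RNA per cell cannot be told apart.

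RefSeq promoter windows (build GRCm38.p6) were found for 27 of the 34 genes. In the 250 bases before each annotated start, 3 short motifs known from sterol genes were searched on both strands: the core of a sterol regulatory element, to which SREBPs bind (TCACNCCAC), the CCAAT box of the partner factor NF-Y (CCAAT) and the GC box of Sp1 (GGGCGG). The 4 promoters printed here, 2 of sterol and 2 of fatty acid genes, were chosen to show how the branches differ in these motifs. They read in the direction of transcription and end at the base before the annotated start. Capitals mark every motif match, with ATTGG and CCGCCC as the reverse-strand forms, and the joined run in Fasn is CCAAT on both strands.
Hmgcs1: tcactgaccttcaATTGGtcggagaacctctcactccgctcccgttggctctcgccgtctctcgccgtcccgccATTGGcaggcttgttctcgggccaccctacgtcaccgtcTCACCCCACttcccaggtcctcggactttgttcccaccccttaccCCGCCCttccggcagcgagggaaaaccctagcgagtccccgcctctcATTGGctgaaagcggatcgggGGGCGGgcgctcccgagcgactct
Mvd: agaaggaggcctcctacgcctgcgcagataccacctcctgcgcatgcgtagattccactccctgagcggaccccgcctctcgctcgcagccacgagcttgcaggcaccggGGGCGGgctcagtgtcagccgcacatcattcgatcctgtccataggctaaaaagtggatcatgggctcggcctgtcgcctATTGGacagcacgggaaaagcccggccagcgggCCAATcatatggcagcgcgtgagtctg
Fasn: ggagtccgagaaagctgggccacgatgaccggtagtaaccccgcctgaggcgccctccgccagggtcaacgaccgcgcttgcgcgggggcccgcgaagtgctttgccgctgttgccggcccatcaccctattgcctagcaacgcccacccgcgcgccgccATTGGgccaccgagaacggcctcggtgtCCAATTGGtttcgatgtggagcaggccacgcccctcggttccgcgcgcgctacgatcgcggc
Acly: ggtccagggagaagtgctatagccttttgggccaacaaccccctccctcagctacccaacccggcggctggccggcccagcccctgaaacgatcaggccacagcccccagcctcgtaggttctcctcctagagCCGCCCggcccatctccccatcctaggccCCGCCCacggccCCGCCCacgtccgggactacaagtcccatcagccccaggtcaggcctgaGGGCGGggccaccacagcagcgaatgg
The Hmgcs1 window lies at chr13:119690101-119690350 on the plus strand, and the Mvd window at chr8:122443423-122443672, the Fasn window at chr11:120824548-120824797 and the Acly window at chr11:100528001-100528250 on the minus strand. None of the 4 windows holds an annotated exon base. Hmgcs1, the synthase that makes HMG-CoA, had the only sterol regulatory element core among the 27 genes, 137 bases before its start, and 1.22% of all genes with a window had one. A CCAAT box stood in 15 of 16 sterol genes, 4 of 5 regulators and 2 of 6 fatty acid genes, against 37.5% of all genes. A GC box stood in 14 of 16 sterol genes, 5 of 5 regulators and 3 of 6 fatty acid genes, against 35.4% of all genes. Some genes have several windows, and a gene counted if any of them held the motif. By window, a CCAAT box stood in 5 of 10 for regulators and 15 of 19 for sterol genes, against 33.8% of all windows. A GC box stood in 7 of 10 and 15 of 19 windows, against 32.7%. Fasn had 3 CCAAT boxes and no GC box, and Acly had 4 GC boxes and no CCAAT box. A match describes letters in these windows and is not a measured binding site.

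**Figure D1:**
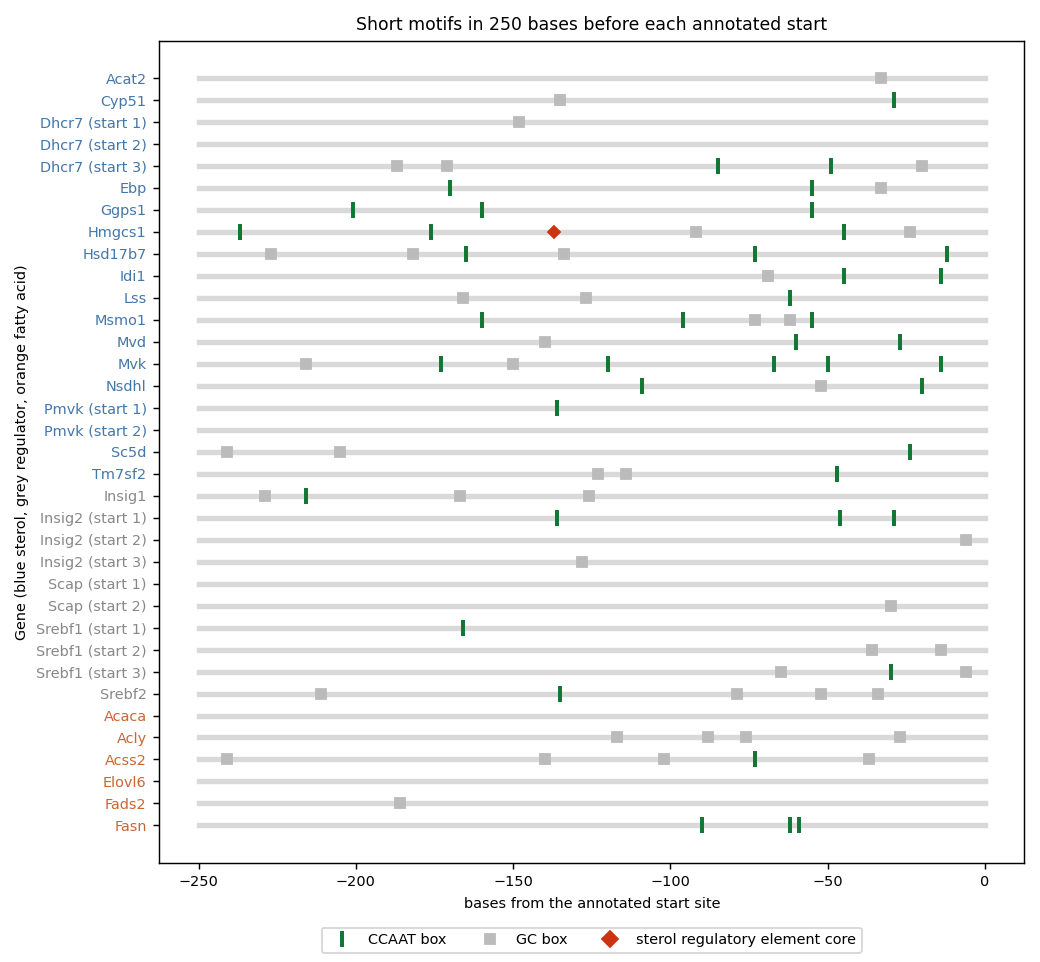
Positions of 3 short motifs in the 250 bases before each annotated start, 1 grey bar per promoter window of the 27 genes with one; the horizontal axis is the distance in bases from the start site. Green ticks (CCAAT box) are found in 15 of 16 sterol genes and in 2 of 6 fatty acid genes, and the single red diamond is the sterol regulatory element core of Hmgcs1.

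FGFRi was compared with DMSO to ask which genes of the gland respond to the inhibitor. Of the 34 genes, 16 were lower in FGFRi and 0 were higher (edgeR quasi-likelihood test, adjusted p under 0.05), beside 10.7% of all genes tested called lower and 9.73% higher. When libraries were scaled to the 15 pan-epithelial genes, 12 were higher and 1 lower, beside 52.4% of all genes higher and 1.08% lower. The share called was 5 of 19 among sterol steps, 4 of 6 among regulators and carriers, and 7 of 9 among fatty acid steps. The median log2 change was -0.24 for sterol steps, -0.33 for regulators and carriers and -0.40 for fatty acid steps, beside -0.02 for all genes, and these 3 medians were 0.20, 0.12 and 0.05 under epithelial scaling. In 27 of the 34 genes every FGFRi library lay below every DMSO library, an arrangement seen in 20.5% of all genes tested. At an unadjusted p under 0.05, 24 were lower and 0 higher. The share of all genes at that unadjusted threshold was not counted, here or for later counts of this kind. These counts therefore cannot be set against all genes. DESeq2 called 15 lower and limma-voom 16, with 0 higher by either, beside 8.49% and 10.6% of all genes called lower.

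**Figure D2:**
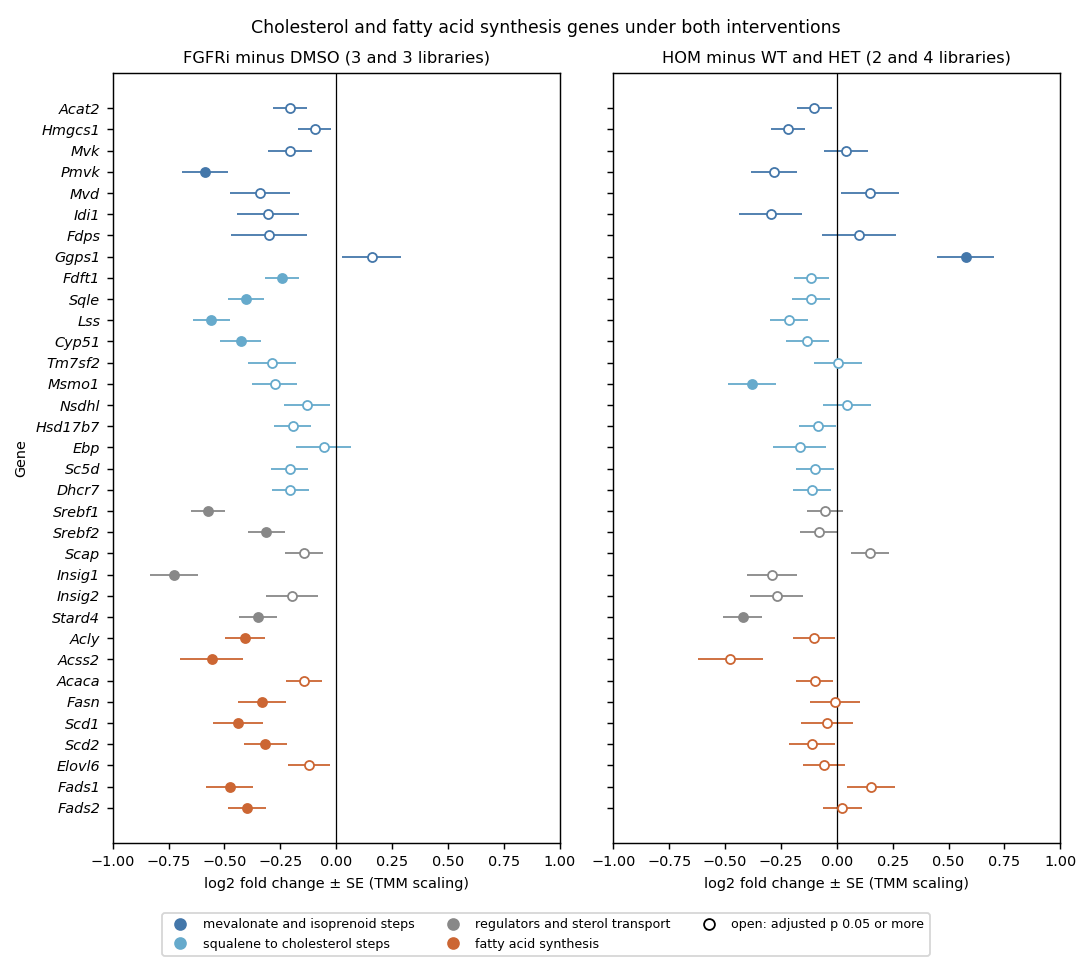
Log2 fold change with its standard error for each of the 34 genes, left for FGFRi against DMSO and right for HOM against WT and HET, coloured by gene group; filled points have an adjusted p under 0.05. On the TMM scale of the axis 16 genes are filled on the left, all below 0, and 3 on the right. Under epithelial scaling 12 would be filled above 0 and 1 below on the left, and 23 above 0 on the right. That scaling called 52.4% of all genes higher on the left and 45.3% on the right.

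Srebf1 and Insig1 had the lowest adjusted p-values among regulators. Srebf1 (ENSMUSG00000020538), the transcription factor of fatty acid genes, was read at 249.6, 238 and 218 CPM in DMSO 1 to 3 and at 146, 163 and 164 CPM in FGFRi 1 to 3. All 3 FGFRi libraries lay below the lowest DMSO library. The log2 level of Srebf1 fell by 0.57 ± 0.08 (± SE here and for every fold change, adjusted p = 0.000149), which is a level 32.9% lower. Insig1 (ENSMUSG00000045294), which retains SREBPs in the endoplasmic reticulum and is itself a target of them, was read at 112, 141 and 106 CPM in DMSO and 66.2, 67.8 and 82.9 CPM in FGFRi. The groups did not overlap, and the 39.5% lower level of Insig1 was the largest fall of the 34 genes on the TMM scale (-0.73 ± 0.11, adjusted p = 0.000311). Insig1 was also the only one of the 34 called lower under epithelial scaling (-0.28, adjusted p = 0.0252) and under scaling to library totals (-0.70, adjusted p = 0.0128), which called 1.8% of all genes lower.

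Srebf2 (ENSMUSG00000022463), the transcription factor of sterol genes, was read at 365, 337 and 299.6 CPM in DMSO and 259, 274 and 272 CPM in FGFRi. The groups did not overlap, but DMSO spanned a wider range, and Srebf2 fell by 0.31 ± 0.08 (adjusted p = 0.0138). Stard4 (ENSMUSG00000024378), a carrier that moves cholesterol between membranes, was read at 115, 111 and 97.9 CPM in DMSO and 79.1, 80.99 and 93.4 CPM in FGFRi. FGFRi 3 came near DMSO 3, and Stard4 fell by 0.35 ± 0.08 (adjusted p = 0.00915). Scap, the escort of SREBPs to the Golgi, was read at 79.3, 68.4 and 72.6 CPM in DMSO and 65.5, 66.2 and 66.8 CPM in FGFRi, and its log2 difference of -0.14 ± 0.09 did not pass (adjusted p = 0.264). Insig2, the second retention protein, was read at 14.96, 19.6 and 20.03 CPM in DMSO and 17.1, 15.01 and 16.2 CPM in FGFRi, with overlap between the groups (-0.20 ± 0.12, adjusted p = 0.259). The call of Srebf2 was lost without DMSO 1 or FGFRi 1 (highest adjusted p 0.0866), and that of Stard4 without FGFRi 1 or FGFRi 2 (highest adjusted p 0.0677).

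Of the 8 mevalonate and isoprenoid steps 1 was lower in FGFRi and 7 did not pass. It was Pmvk (ENSMUSG00000027952), which adds the second phosphate to mevalonate. Pmvk was read at 28.5, 32.6 and 32.3 CPM in DMSO and 18.3, 20.2 and 22.96 CPM in FGFRi, so that every FGFRi library was lower, and it fell by 0.59 ± 0.10 (adjusted p = 0.00108). Hmgcs1 (ENSMUSG00000093930), whose promoter is printed above, had the highest level per length of the sterol steps, 56.9 CPM per kb of exon in DMSO. It was read at 259.6, 265 and 259 CPM in DMSO and 241, 242 and 250.2 CPM in FGFRi. The FGFRi libraries lay below DMSO by a small margin, and the log2 difference of -0.10 ± 0.07 did not pass (adjusted p = 0.396). Ggps1, which makes the geranylgeranyl chain for protein prenylation, was the only one of the 34 genes with a fitted value above 0 (0.16 ± 0.13, adjusted p = 0.441). The other 5 were Acat2, which makes acetoacetyl-CoA, Mvk and Mvd, a kinase and a decarboxylase of mevalonate, Idi1, an isomerase, and Fdps, which makes farnesyl chains. Their fitted values ran from -0.34 (Mvd) to -0.21 (Acat2).

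Of the 11 steps from squalene to cholesterol 4 were lower in FGFRi and 7 did not pass. Lss (ENSMUSG00000033105), the cyclase that makes lanosterol, was read at 155, 154 and 129 CPM in DMSO and 89.5, 104 and 104 CPM in FGFRi. The groups were well apart, and Lss fell by 0.56 ± 0.08 (adjusted p = 0.000307). Sqle (ENSMUSG00000022351), which oxidises squalene, was read at 206, 203 and 170.3 CPM in DMSO and 139, 145 and 154 CPM in FGFRi. DMSO 3 was the lowest control and still above FGFRi 3, and Sqle fell by 0.40 ± 0.08 (adjusted p = 0.00286). Cyp51 (ENSMUSG00000001467), the demethylase of lanosterol, was read at 153, 169 and 135 CPM in DMSO and 105, 117 and 117 CPM in FGFRi. Again DMSO 3 was the lowest control, and Cyp51 fell by 0.43 ± 0.09 (adjusted p = 0.00407). Fdft1 (ENSMUSG00000021273), which joins farnesyl chains to squalene, was read at 115, 113 and 104 CPM in DMSO and 86.1, 98.3 and 95.8 CPM in FGFRi. The fall of 0.24 ± 0.08 in Fdft1 (adjusted p = 0.0340) was the smallest of the called sterol steps, and its call was lost without DMSO 1, DMSO 2, FGFRi 1, FGFRi 2 or FGFRi 3 in turn (highest adjusted p 0.219), and with a term for sex (adjusted p = 0.114).

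The later steps that did not pass were Tm7sf2, Msmo1, Nsdhl, Hsd17b7, Ebp, Sc5d and Dhcr7, which reduce, demethylate, isomerise and desaturate the sterol rings. Their fitted values ran from -0.29 (Tm7sf2) to -0.06 (Ebp), and the lowest adjusted p among them was 0.0685 (Msmo1). Dhcr7, the reductase that ends one route to cholesterol, was read at 87.2, 92.03 and 82.4 CPM in DMSO and 74.3, 78.9 and 74.3 CPM in FGFRi. Every FGFRi library of Dhcr7 was lower, and its difference of -0.21 ± 0.08 had an adjusted p of 0.0914. Where the counting program places reads shared between genes is not given, so genes with shared stretches carry uncertain levels. The 5 with the largest shares are given first. In Fdps 86.4% of its 50-base stretches also occur in another annotated gene, in Acaca 52.6%, in Acat2 45.9%, in Fdft1 30.7% and in Idi1 30.5%. For Fdft1 most of the shared stretch is an overlap with Ctsb on the opposite strand, and for Acat2 it is the paralog Acat3. Of these 5 only Fdft1 was called. The next largest shares were in Hmgcs1 (13.6%), Scap (13.1%) and Ggps1 (11.8%), and Ggps1 was called higher in HOM, as described below. Tm7sf2 shares 12.1% of its exon bases with Vps51 on the same strand.

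Fatty acid genes had the largest share of calls on the TMM scale, 7 of 9 lower, beside 10.7% of all genes tested. Under epithelial scaling 2 of the 9 were higher and 0 lower, beside 52.4% of all genes higher and 1.08% lower. Acly (ENSMUSG00000020917), which splits citrate to supply cytosolic acetyl-CoA, was read at 495, 415 and 404 CPM in DMSO and 303, 337 and 348 CPM in FGFRi. DMSO 1 stood above the other controls, no libraries overlapped, and Acly fell by 0.41 ± 0.09 (adjusted p = 0.00504). Acss2 (ENSMUSG00000027605), which makes acetyl-CoA from acetate, was read at 20.5, 23.4 and 18.9 CPM in DMSO and 11.2, 14.4 and 16.5 CPM in FGFRi. Its level was low and its spread wide, with every FGFRi library below DMSO, and the fall of 0.56 ± 0.14 (adjusted p = 0.0116) lost its call without DMSO 2 or FGFRi 1 (highest adjusted p 0.0777) and with a term for sex (adjusted p = 0.0763). Fasn (ENSMUSG00000025153), the synthase that builds palmitate, was read at 563, 457 and 433 CPM in DMSO and 374, 414 and 365 CPM in FGFRi. FGFRi 2 and DMSO 3 nearly met, and Fasn fell by 0.33 ± 0.11 (adjusted p = 0.0373). The Fasn call was lost without DMSO 1, FGFRi 1, FGFRi 2 or FGFRi 3, and without DMSO 1 the value shrank to -0.21 (adjusted p = 0.172).

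The 4 desaturases fell on the TMM scale, and under epithelial scaling Scd1, Scd2 and Fads2 had values above 0 and Fads1 one of -0.03. Scd2 (ENSMUSG00000025203), a desaturase that makes monounsaturated fatty acids, had the highest level per length of all 34 genes, 315 CPM per kb of exon in DMSO, ahead of Acly at 82.9. Scd2 was read at 1821, 1712 and 1633 CPM in DMSO and 1410.1, 1376 and 1360.2 CPM in FGFRi. The FGFRi libraries lay close together below all controls, and Scd2 fell by 0.32 ± 0.10 (adjusted p = 0.0288). Its call was lost without DMSO 1, DMSO 2, FGFRi 1, FGFRi 2 or FGFRi 3 (adjusted p = 0.110 without FGFRi 2), and with a term for sex (adjusted p = 0.0752). Scd1 (ENSMUSG00000037071), its paralog, was read at 278, 237 and 224 CPM in DMSO and 161, 188 and 194 CPM in FGFRi, and fell by 0.44 ± 0.11 (adjusted p = 0.0113). The groups did not overlap for Scd1, and its call was lost without DMSO 1 or FGFRi 1 (highest adjusted p 0.0875). Of the 50-base stretches of these paralogs 4.66% in Scd1 and 4.01% in Scd2 occur in another gene.

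Fads1 (ENSMUSG00000010663) and Fads2 (ENSMUSG00000024665) are the desaturases of polyunsaturated fatty acids. Fads1 was read at 203, 158 and 148 CPM in DMSO and 126, 117 and 123 CPM in FGFRi. DMSO 1 was well above the other 2 controls, which still exceeded every FGFRi library, and Fads1 fell by 0.48 ± 0.10 (adjusted p = 0.00508). Fads2 was read at 148, 133 and 118 CPM in DMSO and 96.7, 106 and 99.4 CPM in FGFRi. Its groups did not overlap either, and Fads2 fell by 0.40 ± 0.08 (adjusted p = 0.00382). The 2 members that did not pass were Acaca, the carboxylase that makes malonyl-CoA (-0.14 ± 0.08, adjusted p = 0.233), and Elovl6, an elongase of palmitate (-0.12 ± 0.09, adjusted p = 0.396). Of the 16 calls in FGFRi, 9 held in each of the 6 fits that left out 1 DMSO or FGFRi library: Pmvk, Sqle, Lss, Cyp51, Srebf1, Insig1, Acly, Fads1 and Fads2. Without FGFRi 1 only those 9 were called.

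**Figure D3:**
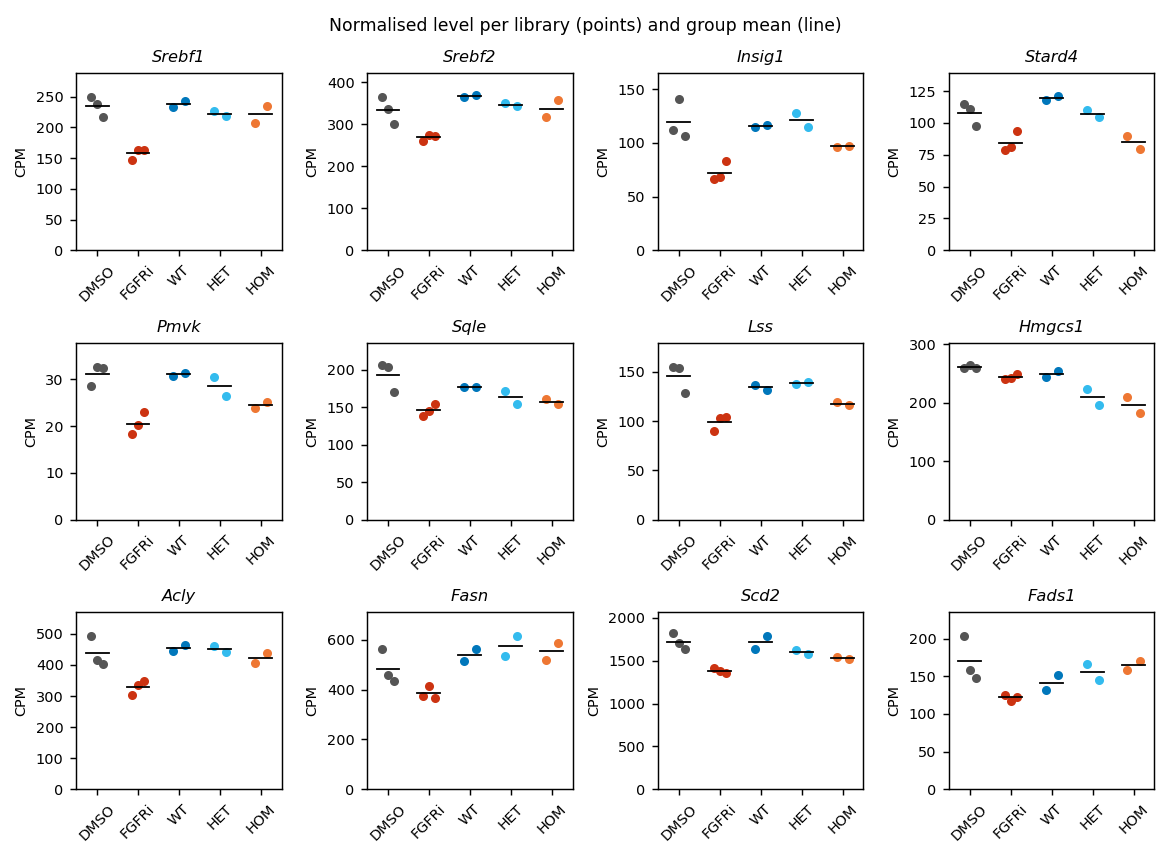
Normalised level in CPM of 12 of the genes in each library (points, coloured by group) with the group mean (line); each axis starts at 0. For Srebf1, Insig1 and Lss the 3 FGFRi points lie below every other library, and for Hmgcs1 they lie close to DMSO while HET and HOM are lower.

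Summed over the 19 sterol steps, levels were 1550.2, 1604 and 1463 CPM in DMSO and 1237, 1280.3 and 1313 CPM in FGFRi. Summed over the 9 fatty acid steps, they were 3764, 3354 and 3192 CPM in DMSO and 2682, 2756 and 2709.7 CPM in FGFRi. Both sums were lower in every FGFRi library, with a mean at 0.829 times DMSO for the sterol steps and 0.790 times for the fatty acid steps. Scd2 made up 46.2% to 52.6% of the fatty acid sum, and without it the ratio was 0.778. The log2 ratio of the fatty acid sum to the sterol sum was 1.28, 1.06 and 1.13 in DMSO and 1.12, 1.11 and 1.05 in FGFRi, and these ranges overlapped. By gene, the median change was larger in the fatty acid branch, and by sum the 2 branches moved by similar amounts. A difference between the branches was not tested.

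**Figure D4:**
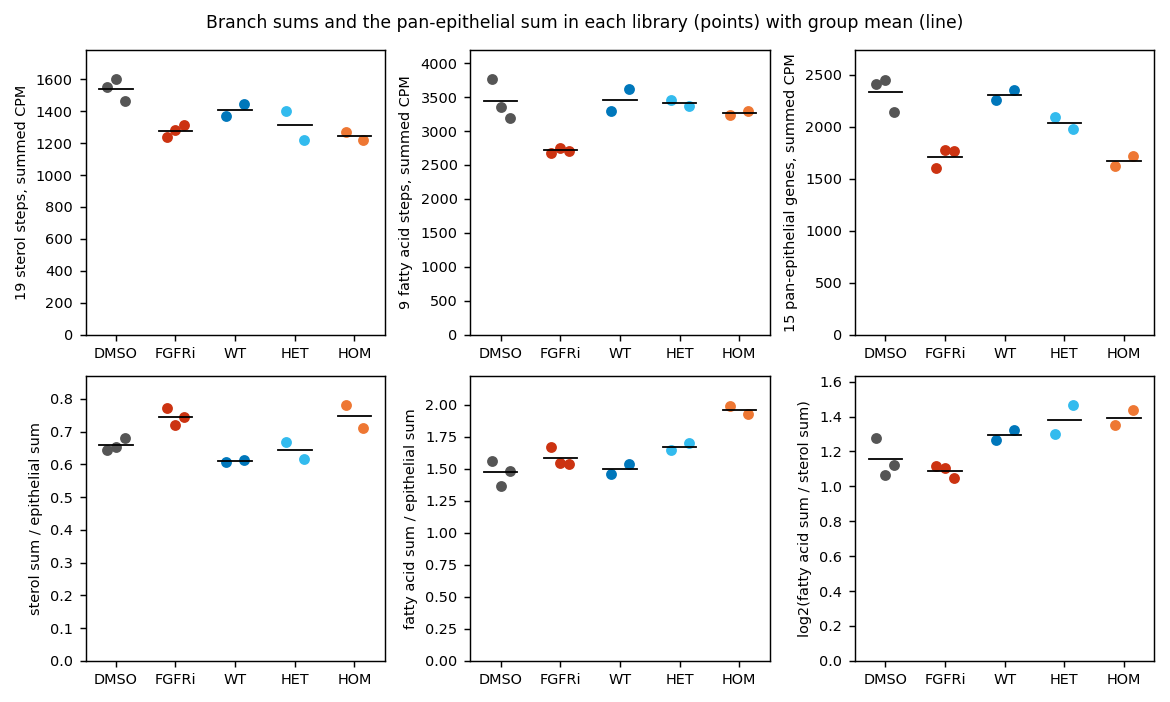
Summed CPM of the sterol steps, the fatty acid steps and the pan-epithelial genes (top), and the branch sums divided by the epithelial sum and the log2 ratio of the branch sums (bottom), in each library (points) with the group mean (line). FGFRi lies below DMSO in all 3 top panels. Divided by the epithelial sum, the sterol sum turns higher in FGFRi (0.720 to 0.773) than in DMSO (0.643 to 0.682). That division raises most genes: under epithelial scaling the median log2 change of all genes in FGFRi was 0.43.

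The epithelial markers fell with these genes. Of the 15 pan-epithelial genes 14 were lower in FGFRi, and the sum was 2412, 2451 and 2146 CPM in DMSO and 1601, 1779 and 1764 CPM in FGFRi. Divided by that sum, the fatty acid sum was 1.56, 1.37 and 1.49 in DMSO and 1.67, 1.55 and 1.54 in FGFRi, with overlap, and the sterol sum was higher in every FGFRi library. Under epithelial scaling the all-gene median stood at 0.43. Relative to that median the sterol steps stood at -0.23 and the fatty acid steps at -0.38, as they did under TMM scaling. A change of scaling shifts all genes by about the same amount, so these relative values could hardly differ and are no separate check. Mesenchymal markers rose in 12 of 14 genes (2033 to 2155 CPM summed in DMSO, 3377 to 4806 CPM in FGFRi) and skeletal muscle markers in 12 of 12 tested (17.3 to 57.5 CPM against 137 to 615 CPM). The part of cell makeup in the lower levels of lipid genes was not tested. Markers of adipocytes, cells rich in lipid enzymes, were near 0 apart from Lpl: 5 of 8 had under 10 counts in every library, Lep had 0 in all 12, and without Lpl the mean sum was 1.43 ± 0.33 CPM for DMSO against 1.70 ± 0.68 CPM for FGFRi (SD over 3 libraries each). Among 8 Schwann cell genes 5 were higher and 1 lower, with a median log2 change of 1.35. Their sum was 206 to 251 CPM in DMSO and 169 to 190 CPM in FGFRi. Most of that sum was Erbb3, the gene called lower, so the sum does not describe the other genes. Erbb3 was read at 236, 201 and 190 CPM in DMSO and 133, 155 and 161 CPM in FGFRi.

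**Figure D5:**
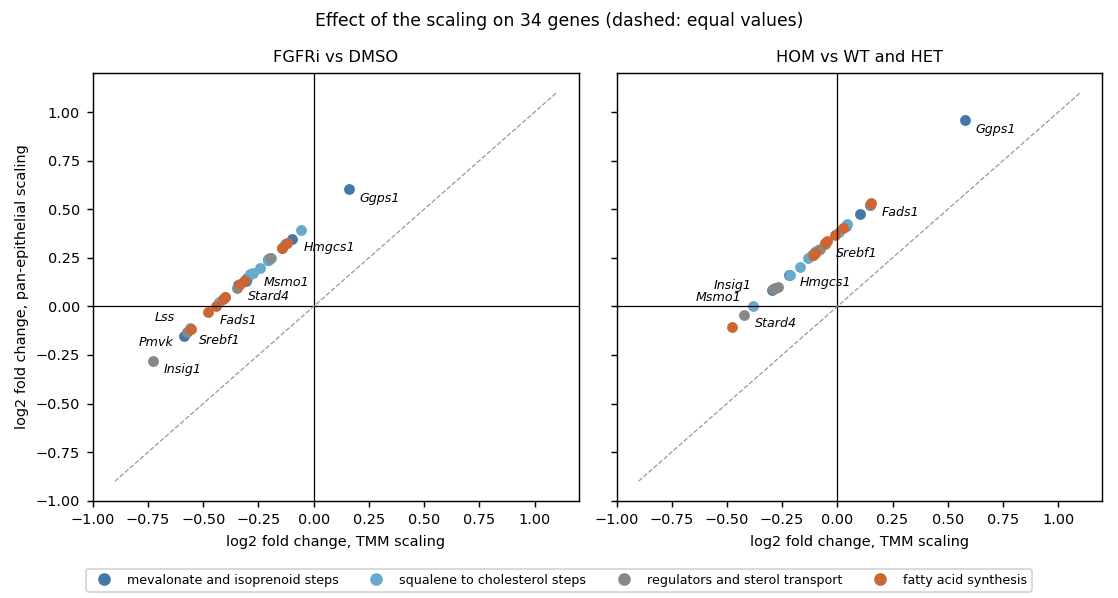
Log2 fold change of each of the 34 genes under TMM scaling (horizontal) and under scaling to the 15 pan-epithelial genes (vertical), left for FGFRi against DMSO and right for HOM against WT and HET; the dashed line marks equal values. All points shift upward together, so that 28 of 34 lie above 0 on the vertical axis at left, where Insig1 is the lowest, and 32 of 34 at right.

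Homozygous deletion of Fgfr2b in epithelium was compared with WT and HET as 1 control. Of the 34 genes 1 was higher and 2 were lower in HOM, against 3.44% and 2.44% of all genes tested, and 23 were higher and 0 lower under epithelial scaling, beside 45.3% of all genes higher and 0.631% lower. Stard4 was read at 118 and 121 CPM in WT, 109.8 and 105 CPM in HET and 90.1 and 79.4 CPM in HOM. Both HOM libraries lay below all 4 controls, and Stard4 fell by 0.42 ± 0.09 (adjusted p = 0.0110). Msmo1 (ENSMUSG00000031604), which takes part in the removal of methyl groups from the ring, was read at 68.3 and 86.9 CPM in WT, 75.3 and 63.4 CPM in HET and 61.3 and 51.7 CPM in HOM. HOM 1 and HET 2 nearly met, and Msmo1 fell by 0.38 ± 0.11 (adjusted p = 0.0491). Ggps1 (ENSMUSG00000021302) was read at 19.9 and 26.7 CPM in WT, 17.1 and 15.4 CPM in HET and 32.6 and 25.6 CPM in HOM. WT 2 exceeded HOM 2, so the groups overlapped, while Ggps1 rose by 0.58 ± 0.13 (adjusted p = 0.0156). Ggps1 lost its call with WT alone as controls, and Stard4 and Msmo1 lost theirs with HET alone. In FGFRi and DMSO, Ggps1 was read at 25.7, 26.9 and 22.5 and 20.7, 21.96 and 24.1 CPM.

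None of these 3 calls held in each of the 6 fits without 1 library. Stard4 was lost without HOM 2 (adjusted p = 0.235), Ggps1 without WT 1, HET 2 or HOM 1 (highest adjusted p 0.178) and Msmo1 without WT 2, HET 1, HOM 1 or HOM 2 (highest adjusted p 0.516). HOM was female in both libraries and its 4 controls were male, so sex and genotype cannot be told apart within the cross. A term for sex is estimated from the DMSO libraries and rests on DMSO 2, the only male library among them. With that term 0 of the 34 genes were called.

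The fatty acid branch had 0 calls of 9 in HOM by edgeR, with 1 gene at an unadjusted p under 0.05, and 0 by DESeq2 and by limma-voom. That gene was Acss2, at 15.8 and 20.4 CPM in WT, 13.9 and 14.2 CPM in HET and 10.8 and 11.9 CPM in HOM. Both HOM libraries of Acss2 were the lowest, with a log2 difference of -0.48 ± 0.15 (adjusted p = 0.0710). Fasn was read at 515 and 562 CPM in WT, 535 and 616 CPM in HET and 519 and 587 CPM in HOM, and the groups overlapped (-0.01 ± 0.11, adjusted p = 0.984). Scd2 was read at 1641 and 1793 CPM in WT, 1622 and 1574 CPM in HET and 1541 and 1525 CPM in HOM, with a difference of -0.11 ± 0.10 (adjusted p = 0.623), although both HOM libraries were below the controls. Acly stood at 423 ± 21.6 CPM in HOM (SD, n = 2) and 454 ± 11.4 CPM in WT and HET (SD, n = 4), with an adjusted p of 0.630. Scd1, Fads2, Elovl6 and Acaca had fitted values from -0.10 (Acaca) to 0.02 (Fads2). The medians were -0.11 for sterol steps and -0.06 for fatty acid steps, beside 0.00055 for all genes. They were 0.27 and 0.32 under epithelial scaling and 0.04 and 0.10 under library totals, which moved the median of all genes to 0.375 and 0.148.

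Among regulators, Insig1 was read at 115 and 117 CPM in WT, 128 and 114 CPM in HET and 96.1 and 97.6 CPM in HOM. HOM was the lowest group of the cross for Insig1, but the difference of -0.29 ± 0.11 did not pass (adjusted p = 0.149). Srebf1 was read at 233 and 243 CPM in WT, 226 and 219 CPM in HET and 208 and 235 CPM in HOM, and the groups overlapped (-0.05 ± 0.08, adjusted p = 0.785). Srebf2 was read at 365 and 369.95 CPM in WT, 349.7 and 344 CPM in HET and 318 and 357 CPM in HOM, with overlap (-0.08 ± 0.09, adjusted p = 0.682). Scap had a fitted value of 0.15 ± 0.09 and Insig2 of -0.27 ± 0.12, neither of which passed (adjusted p = 0.372 and 0.214).

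Sterol steps called in FGFRi were also read in the cross. Pmvk was read at 30.8 and 31.2 CPM in WT, 30.4 and 26.5 CPM in HET and 23.8 and 25.03 CPM in HOM. Lss was read at 137 and 131 CPM in WT, 138 and 139.6 CPM in HET and 119 and 116 CPM in HOM. For both genes the HOM libraries were the lowest of the cross, yet neither passed (Pmvk -0.28 ± 0.10, adjusted p = 0.128; Lss -0.21 ± 0.09, adjusted p = 0.169). Sqle stood at 160.2 and 154 CPM in HOM and at 172 and 155 CPM in HET, with overlap (-0.11 ± 0.08, adjusted p = 0.515). Hmgcs1 was read at 245 and 254 CPM in WT, 223 and 197 CPM in HET and 211 and 183 CPM in HOM, so that HET stood with HOM below WT (-0.22 ± 0.08, adjusted p = 0.119). Every HOM library lay below every control in 9 of the 34 genes, an arrangement seen in 12.2% of all genes tested.

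The sterol sum was 1372 and 1445 CPM in WT, 1400.1 and 1223 CPM in HET and 1270.0 and 1219 CPM in HOM. The fatty acid sum was 3293 and 3622 CPM in WT, 3452 and 3374 CPM in HET and 3236 and 3302 CPM in HOM. Both sums overlapped between HOM and its controls. The epithelial sum was lower in HOM without overlap (1623 and 1715 CPM, against 2257 and 2353 in WT and 2093 and 1984 in HET), with 8 of 15 genes called lower. Divided by the epithelial sum, the fatty acid sum was 1.99 and 1.93 in HOM and 1.46 to 1.70 in WT and HET, and the sterol sum was 0.782 and 0.711 in HOM and 0.608 to 0.669 in WT and HET. Per unit of epithelial marker RNA both branches were higher in HOM, but dividing by a lower sum raises most genes. Under epithelial scaling the median log2 change in HOM was 0.375 for all genes. It was 0.27 for sterol steps and 0.32 for fatty acid steps, both below that median. Mesenchymal sums were 3553 to 3686 CPM in HOM, 3211 to 3530 CPM in HET and 2230 to 2325 CPM in WT, and their part in these values was not tested.

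The FGFRi effect was then set against the HOM effect in 1 model. Of the 34 genes 2 differed between the interventions (2.77% of all genes tested), Srebf1 and Fads1. Srebf1 was lower by 0.57 ± 0.08 in FGFRi and had a value of -0.05 ± 0.08 in HOM, a difference of -0.52 ± 0.11 (adjusted p = 0.0222). Fads1 was read at 131 and 152 CPM in WT, 166 and 145 CPM in HET and 159 and 171 CPM in HOM, where the groups overlapped (0.15 ± 0.11), and its difference between the interventions was -0.63 ± 0.15 (adjusted p = 0.0382). The next 3 by p were Fads2 (-0.42 ± 0.12, adjusted p = 0.0759), Lss (-0.34 ± 0.12, adjusted p = 0.139) and Insig1 (-0.44 ± 0.15, adjusted p = 0.148), which did not pass. For the other 14 genes called in FGFRi a difference from the HOM effect was not detected, which does not show that the effects are alike. Srebf1 lost its call without DMSO 1, FGFRi 1, WT 1, WT 2 or HOM 2 (highest adjusted p 0.182), and Fads1 without any one of DMSO 1, FGFRi 1, FGFRi 2, WT 1, WT 2, HET 2, HOM 1 or HOM 2 (highest adjusted p 0.223). With a term for sex the difference was -0.54 for Srebf1 (adjusted p = 0.0495) and -0.53 for Fads1, which lost its call (adjusted p = 0.138). Fads1 also lost it under epithelial scaling (adjusted p = 0.0745), and both lost it under library totals (adjusted p = 0.550 for Srebf1 and 0.283 for Fads1).

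Among the controls, HET and WT differed in 0 of the 34 genes by edgeR (1.22% of all genes tested), with 3 at an unadjusted p under 0.05, and in 0 by DESeq2 and limma-voom. Those 3 were Ggps1 (-0.51 ± 0.16, adjusted p = 0.165), Hmgcs1 (-0.25 ± 0.09, adjusted p = 0.236) and Idi1 (-0.44 ± 0.17, adjusted p = 0.257), all from the isoprenoid part and all with a negative value. DMSO and untreated WT differed in 0 of the 34 by the same 3 tools (2.26% of all genes tested), with 4 at an unadjusted p under 0.05. Without DMSO 3 the count was 1. These 4 were Tm7sf2 (0.39 ± 0.12, adjusted p = 0.117), Nsdhl (0.36 ± 0.12, adjusted p = 0.146), Fdft1 (0.22 ± 0.08) and Fads1 (0.26 ± 0.12), each higher in DMSO. For neither comparison was the share of all genes at that unadjusted threshold counted.

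Other genes of lipid metabolism were read from 4 lists. Of 19 tested genes of SREBP processing, sterol sensing, storage and traffic, 3 were lower and 1 higher in FGFRi. Of all genes tested, 10.7% were lower and 9.73% higher. Stard3, a lysosomal sterol carrier, fell by 0.53 ± 0.12 (adjusted p = 0.00597). Erlin1, of sterol-regulated protein degradation in the endoplasmic reticulum, fell by 0.41 ± 0.11 (adjusted p = 0.0151), a call lost without FGFRi 1 or FGFRi 2. Abca1, the transporter that exports cholesterol from cells, was read at 23.7, 20.7 and 27.6 CPM in DMSO and 52.5, 36.3 and 41.6 CPM in FGFRi. Every FGFRi library of Abca1 was higher, and it rose by 0.86 ± 0.17 (adjusted p = 0.00208). In HOM 0 of these 19 were called by edgeR, beside 2.44% of all genes lower and 3.44% higher. Of the 19, 2 had an unadjusted p under 0.05, a threshold at which the share of all genes was not counted.

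Of 24 genes of other lipid synthesis 9 were lower and 1 higher in FGFRi, beside 10.7% and 9.73% of all genes tested. Me1, malic enzyme, which supplies NADPH for fatty acid synthesis, was read at 31.4, 34.1 and 29.4 CPM in DMSO and 15.2, 17.3 and 20.1 CPM in FGFRi. The groups were well apart, and Me1 fell by 0.83 ± 0.11 (adjusted p = 0.000111). Acsl1, which activates fatty acids with CoA, fell by 0.57 ± 0.12 (adjusted p = 0.00460), and Slc25a1, the citrate carrier that feeds Acly, by 0.34 ± 0.07 (adjusted p = 0.00501). Pcyt2, of phosphatidylethanolamine synthesis, fell by 0.41 ± 0.11 (adjusted p = 0.0124), a call lost without DMSO 2, FGFRi 1 or FGFRi 2. In HOM 1 of the 24 was lower, Acsl3, another CoA ligase, by 0.33 ± 0.08 (adjusted p = 0.0191), beside 2.44% of all genes.

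By edgeR, 5 of 15 genes of fatty acid oxidation had an unadjusted p under 0.05 in FGFRi, where the share of all genes was not counted. Of the 15, 1 was called higher and 0 lower, beside 9.73% and 10.7% of all genes tested. It was Cpt1a, which brings fatty acids into mitochondria, read at 45.4, 46.4 and 42.5 CPM in DMSO and 64.6, 61.9 and 51.6 CPM in FGFRi. It rose by 0.39 ± 0.09 (adjusted p = 0.00644), with no overlap between the groups. In HOM 2 of these 15 were lower: Ppargc1a, a coactivator of mitochondrial genes, by 0.67 ± 0.16 (adjusted p = 0.0224) and Acadl, an acyl-CoA dehydrogenase, by 0.36 ± 0.10 (adjusted p = 0.0428). Of 10 genes that use isoprenoids 2 were lower in FGFRi, Dhdds of dolichol synthesis by 0.29 ± 0.08 (adjusted p = 0.0249) and Coq2 of ubiquinone synthesis by 0.36 ± 0.11 (adjusted p = 0.0254). In HOM 1 of them was lower, Nus1, the partner of Dhdds, by 0.31 ± 0.08 (adjusted p = 0.0391). Of all genes tested, 2.44% were called lower in HOM. The median log2 changes of the 4 lists in FGFRi were -0.06, -0.22, -0.13 and -0.20 in the order given, beside -0.02 for all genes. The calls in HOM of Acsl3, Ppargc1a, Acadl and Nus1 each failed in at least 4 of the 6 fits without 1 library, and those of Dhdds and Coq2 in FGFRi in 4 and 3 of 6; Nus1 shrank to -0.20 without HOM 2. Of the genes named from these lists in FGFRi, Abca1 and Me1 kept their calls under epithelial scaling and under library totals, Cpt1a kept its call under epithelial scaling alone, and the others lost theirs under both. Under epithelial scaling Stard3 stood at -0.09 (adjusted p = 0.463) and Acsl1 at -0.13 (adjusted p = 0.306). The calls of Pcyt2, Dhdds and Coq2 in FGFRi and of Acsl3, Ppargc1a, Acadl and Nus1 in HOM were lost with a term for sex, and those 4 in HOM under both other scalings too.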

How the data were processed

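The authors deposited raw read counts per gene, whole numbers without normalization. Per the submitters' processing notes, bcl2fastq, STAR and the build GRCm39 were used. The sources used here do not give the counting program, annotation release or strand setting. No molecular identifiers are described, so reads are not independent molecules. Symbols came from GENCODE M21 by Ensembl identifier (52403 of 52636 matched), and 0 columns were left unmapped. Counts were tested in R 4.3.3 with edgeR 4.0.16 (TMM, filterByExpr at minimum count 10 and total 15, quasi-likelihood F test). All 12 libraries entered 1 model with a coefficient for each group (7 residual df). HOM was compared with the mean of the WT and HET coefficients. P-values were two-sided, adjusted by Benjamini-Hochberg over all 15859 genes per comparison and called under 0.05. The SE is the log2 change over the square root of F. Replicate libraries differed by more than counting noise and each was counted once. Alternatives were DESeq2 1.42.0, limma-voom (limma 3.58.1), other scalings and filters, a term for sex, other controls, a replicate block and each library left out. The model was tested on simulated data. The genes and lists were chosen with earlier results of these data known. Library values are given for the regulators and for genes called in FGFRi, HOM or the difference, up to 7 per branch by p, plus the most abundant per length of each branch, and of each other list up to 4 called genes by p are named (1 of them is not reported here); library values of Dhcr7 were added after their values were seen. Levels per kb use the union of annotated exons. Promoters are RefSeq windows without measured binding.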

Additional observations from a re-analysis of the deposited data

Results flagged for a closer look

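The response of 2 genes differed between the FGF receptor inhibitor and the epithelial deletion of Fgfr2b by a test of the difference itself (edgeR quasi-likelihood test of the interaction, adjusted over 15859 genes). For Srebf1, the SREBP gene of the fatty acid branch, the FGFRi effect minus the HOM effect was -0.52 on the log2 scale (adjusted p = 0.0222). For Fads1, a desaturase of polyunsaturated fatty acids, it was -0.63 (adjusted p = 0.0382). Both calls were lost without DMSO 1 or FGFRi 1, and under library totals (adjusted p = 0.550 for Srebf1 and 0.283 for Fads1). Losses with other libraries left out are given above. With a term for sex Srebf1 kept its call (adjusted p = 0.0495) and Fads1 lost it (adjusted p = 0.138). That term rests on DMSO 2, the only male library of the only group with both sexes. The interventions also differ in the cells they reach and in the use of DMSO, and the part of each was not tested. Effects of the inhibitor beyond FGF receptors were not tested either.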

How the results depend on the processing

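DESeq2 size factors gave the main counts of called genes in all 5 comparisons, and limma-voom did as well. Scaling to library totals left 1 called gene in FGFRi, 1 in HOM and 0 in the difference between the interventions; the cause was not tested. Scaling to epithelial genes gave 13 in FGFRi, 12 of them higher, 23 in HOM, all higher, and 1 in the difference. Of all genes tested, 52.4% were higher in FGFRi and 45.3% in HOM under that scaling. By construction that scaling raises every value by about the amount by which epithelial markers fell. Under it 27 of the 34 genes in FGFRi and 23 in HOM turned from below to above 0. Called under neither scaling were 7 of these in FGFRi (Mvd, Idi1, Fdps, Tm7sf2, Msmo1, Sc5d and Insig2, 0.11 to 0.25) and 8 in HOM (Idi1, Insig1, Pmvk, Insig2, Lss, Hmgcs1, Ebp and Scd2, 0.085 to 0.27). The log2 values of the others, and of genes named from other lists, were, in FGFRi, Acat2 0.24, Hmgcs1 0.35, Mvk 0.24, Fdft1 0.20, Sqle 0.046, Cyp51 0.020, Nsdhl 0.32, Hsd17b7 0.25, Ebp 0.39, Dhcr7 0.24, Srebf2 0.14, Scap 0.30, Stard4 0.10, Acly 0.036, Acaca 0.30, Fasn 0.12, Scd1 0.0024, Scd2 0.13, Elovl6 0.32, Fads2 0.048, Erlin1 0.018, Slc25a1 0.10, Pcyt2 0.037, Dhdds 0.16 and Coq2 0.085. In HOM they were Acat2 0.28, Fdft1 0.26, Sqle 0.26, Cyp51 0.25, Msmo1 0.00201, Hsd17b7 0.29, Sc5d 0.28, Dhcr7 0.27, Srebf1 0.32, Srebf2 0.29, Acly 0.27, Acaca 0.28, Fasn 0.37, Scd1 0.34, Elovl6 0.32, Acsl3 0.051, Acadl 0.021 and Nus1 0.075. The log2 ratio of the sterol sum turned to 0.18 in FGFRi and 0.25 in HOM, and that of the fatty acid sum to 0.11 and 0.31. Under library totals the sums in HOM turned to 0.025 (sterol) and 0.079 (fatty acid). With no filter on low counts the difference had 5 called genes (Mvd, Insig1 and Fads2 added) and HET against WT 1 (Ggps1). A term for sex left 13 in FGFRi, 0 in HOM and 2 in the difference (Fads1 lost, Insig1 added). In FGFRi it lost Fdft1, Acss2 and Scd2, the same calls as the fit without DMSO 2, on which the term rests. HET alone as controls left 1 in HOM (Ggps1), and WT alone gave 4 (Ggps1 lost, Hmgcs1 and Acss2 added). The causes were not tested. With 1 library left out, the counts ran from 9 to 18 in FGFRi, from 1 to 2 in HOM, from 0 to 4 in the difference (4 without DMSO 3, with Lss and Fads2 added), from 0 to 0 in HET against WT and from 0 to 1 in DMSO against WT. Fits that left 1 library in a group assume that it varies like the other groups. With the replicate number as a block the counts were 14 in FGFRi, 2 in HOM, 1 in the difference and 0 in both comparisons of controls. Same-numbered libraries did not deviate together: the correlations of their deviations were -0.092, -0.12 and -0.025 between DMSO and FGFRi, and -0.15 between WT and HOM, so the numbers were not taken to pair libraries. With the 2 WT numbers crossed, chosen after the data were seen, the block gave 3 in HOM and 0 in HET against WT. Depth limits the low genes most: the lowest count was 49 (Fdps).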
